A study of Mus musculus with 68 samples.

Results

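The ERVK subfamilies described here were the endogenous retrovirus K subfamilies of the mouse genome outside the IAP, ETn/MusD and RLTR45 groups. Members were picked by name alone: the family had to read ERVK, and names starting with IAP, ETn, MMETn or RLTRETN were left out, as were RLTR45, RLTR45-int, MMERVK10C-int, MMERVK10D3_I-int, MMERVK9C_I-int and ERVB4_2-LTR_MM. This left 249 subfamilies of 285 ERVK subfamilies and of 1146 repeat subfamilies counted. Of the 249 members, 28 were internal regions and 221 were long terminal repeats (LTRs). The rule reads no expression value, but it was set with earlier results of these data known.

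ERVK elements are class II endogenous retroviruses, relatives of the betaretroviruses. A full copy has an internal region, with the former viral genes, between 2 LTRs, and the LTR holds the promoter and often enhancer sequence. Most copies have lost the internal region by recombination and remain as solitary LTRs. In mouse embryonic stem cells (ESCs), TRIM28 and SETDB1, guided by KRAB zinc finger proteins, place H3K9me3 on many ERVK copies and keep them silent. Some LTRs of the family, such as RLTR9 and RLTR13D6, are known as ESC enhancers, RLTR13D5 as a trophoblast stem cell enhancer and RLTR10C as an enhancer in male germ cells.

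The data were total RNA-seq of E14JU male mouse ESCs of the 129/Ola background, grown on gelatin in serum with LIF. MCM2-2A clones carry a mutation in the histone-binding domain of MCM2, a replicative helicase subunit that passes parental histones to the lagging strand, and in MCM2-R#2 the mutation of MCM2-2A#2 was reverted. POLE4-KO clones lack POLE4, a subunit of the leading-strand polymerase that also hands on parental histones. The rescue experiment held WT#1, MCM2-2A#2 and MCM2-R#2 with 4 cultures each, the clone panel held 8 WT and 8 MCM2-2A clones, and the POLE4 experiment held WT#1 and 3 POLE4-KO clones with 3 libraries each. Of the panel, 7 WT clones and all 8 MCM2-2A clones were used, since the 3 January libraries of WT#5 could not be matched with columns by name and were not analysed here. Each rescue and POLE4 line is a single clone, so mutation and clone cannot be told apart between any such line and WT#1. The paper included the revertant to tell clonal differences from effects of defective histone recycling, but a single revertant line was used here. The 3 POLE4-KO clones were compared with a single WT line.

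The targeted genes differed between the lines. Mcm2 mRNA was 397 to 438.8 counts-per-million (CPM) in WT#1, 218 to 233 in MCM2-2A#2 and 205 to 218 in MCM2-R#2. These counts do not read the point mutation itself, and the transcript level did not set the mutant apart from the revertant. Pole4 mRNA was 56.2 to 61.3 CPM in WT#1, 2.87 to 3.75 in POLE4-KO#1, 6.43 to 8.35 in POLE4-KO#2 and 2.97 to 4.85 in POLE4-KO#3. Of 8 ESC markers, 0 were called in any comparison. The 65 libraries held 18369196 to 67467849 counts, of which the members took 0.171 to 0.338%, or 43180 to 194399 counts per library. Levels below are CPM of gene counts after TMM scaling on genes, so a subfamily is compared between lines and never with another subfamily, since copy number and length differ. Reads from near-identical copies may be shared between subfamilies, and their treatment in the counting is not given in the sources used here. In bulk RNA a change in the number of transcribing cells and a change in RNA per cell cannot be told apart.

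In the rescue experiment, 6 of the 226 members tested rose in MCM2-2A#2 relative to WT#1 and 0 fell, against 2.05% of all repeat subfamilies called higher. A member was called where edgeR's quasi-likelihood test, with Benjamini-Hochberg adjustment over all repeats tested, gave an adjusted p below 0.01 and the log2 fold change was beyond 0.58 in size. The 6 were the internal regions ERVB4_2-I_MM-int, MMERVK9E_I-int and RLTR44-int and the LTRs RLTR27, RLTR10D2 and RMER12B. The median log2 fold change of the members was 0.24 and that of all 879 repeats tested was 0.21. Above 0 stood 196 members, or 86.7%, and 87.9% of all repeats. In 39 members (17.3%) the 4 MCM2-2A#2 cultures all lay above the 4 WT#1 cultures, and in 13.5% of all repeats. Members and repeats as a whole were thus shifted by similar amounts.

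ERVB4_2-I_MM-int, the internal region of an ERVB provirus, had 8.40, 8.16, 8.40 and 9.05 CPM in the 4 WT#1 cultures. In MCM2-2A#2 it had 16.8, 12.4, 14.6 and 14.7 CPM, and in MCM2-R#2 9.28, 9.91, 12.9 and 10.5 CPM. The MCM2-2A#2 values all lay above those of WT#1, and the highest MCM2-R#2 culture passed the lowest MCM2-2A#2 culture. The mean was 8.5 ± 0.382 in WT#1 and 14.6 ± 1.77 in MCM2-2A#2 (SD, n = 4), a log2 fold change of 0.78 (SE 0.11, adjusted p = 0.000271, edgeR).

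MMERVK9E_I-int, another internal region with the layout of a betaretrovirus, had 29.4, 29.0, 26.0 and 33.6 CPM in WT#1. It had 43.0, 51.1, 47.4 and 43.6 CPM in MCM2-2A#2 and 34.8, 31.0, 33.2 and 32.8 CPM in MCM2-R#2. The MCM2-2A#2 cultures stood above all 8 cultures of the other lines. The log2 fold change was 0.65 (SE 0.08, adjusted p = 7.56e-05, edgeR), and both it and ERVB4_2-I_MM-int were called in all 12 fits that left out 1 culture.

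RLTR44-int, the internal region that goes with the RLTR44 LTRs, had 3.00, 2.79, 1.75 and 2.92 CPM in WT#1. It reached 6.42, 4.71, 5.36 and 3.86 CPM in MCM2-2A#2 and 2.86, 3.11, 2.26 and 3.24 CPM in MCM2-R#2, and the mutant did not overlap either line. The log2 fold change was 0.99 (SE 0.19, adjusted p = 0.00411, edgeR). Among the RLTR44 LTRs, RLTR44A had a log2 fold change of 1.17 (adjusted p = 0.0189, edgeR), RLTR44B of 1.19 (adjusted p = 0.0318) and RLTR44D of 1.13 (adjusted p = 0.05), none past the limit, with few counts behind each.

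**Figure D1:**
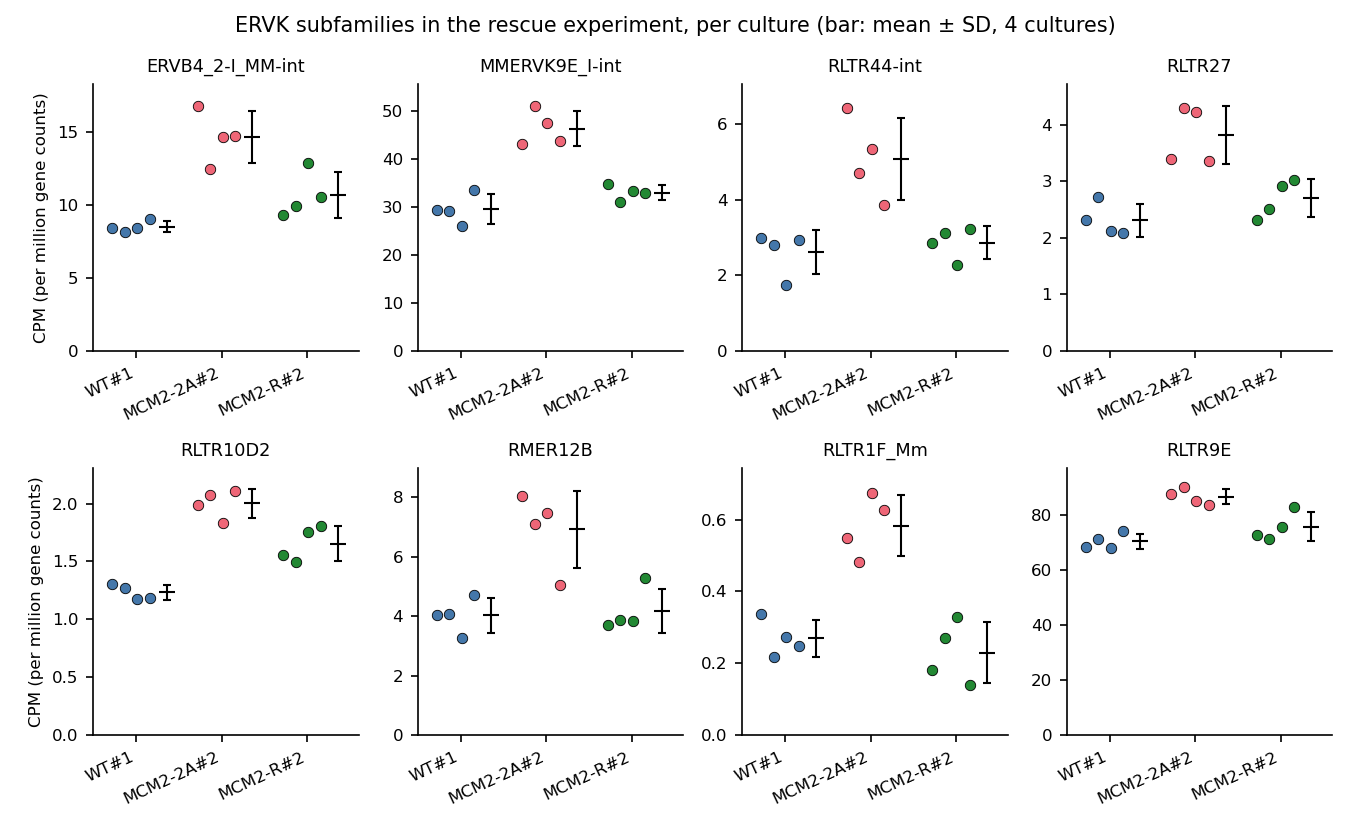
Levels of 8 members in the rescue experiment, as CPM of gene counts on axes that start at 0, in WT#1, MCM2-2A#2 and MCM2-R#2. Points are the 4 cultures of a line and bars are the mean ± SD; MMERVK9E_I-int and RLTR44-int show the 4 MCM2-2A#2 cultures above all others.

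Of the 3 LTRs that passed, RLTR27 had 2.32, 2.72, 2.11 and 2.08 CPM in WT#1, 3.40, 4.30, 4.22 and 3.36 in MCM2-2A#2 and 2.32, 2.51, 2.92 and 3.03 in MCM2-R#2, with a log2 fold change of 0.74 (SE 0.14, adjusted p = 0.00365, edgeR). RLTR10D2 had 1.31, 1.27, 1.18 and 1.18 CPM in WT#1, 1.99, 2.08, 1.83 and 2.11 in MCM2-2A#2 and 1.56, 1.5, 1.75 and 1.81 in MCM2-R#2 (log2 fold change 0.70, SE 0.13, adjusted p = 0.0038, edgeR). In both, MCM2-2A#2 overlapped neither other line, and RLTR10D2 in MCM2-R#2 also lay above WT#1 in all 4 cultures. RMER12B had 4.05, 4.06, 3.27 and 4.73 CPM in WT#1, 8.03, 7.12, 7.48 and 5.07 in MCM2-2A#2 and 3.70, 3.86, 3.84 and 5.29 in MCM2-R#2 (log2 fold change 0.80, SE 0.16, adjusted p = 0.00606, edgeR). The lowest MCM2-2A#2 culture and the highest MCM2-R#2 culture overlapped there. RMER12 and RMER12C, its close names, had log2 fold changes of 0.24 and 0.16.

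These 4 weaker calls depended on single cultures. With 1 culture left out in turn, RLTR44-int was called in 8 of 12 fits, RLTR27 in 7, RLTR10D2 in 6 and RMER12B in 6. The number of members called was 3 without WT#1 culture 1, 3 without WT#1 culture 2 and 2 without WT#1 culture 3, and it was 3 without MCM2-2A#2 culture 1, 2 or 4. Of all repeats, 1.23 to 2.47% were called with 1 culture left out. With scaling on the repeat counts instead of the gene counts, the median of all repeats moved from 0.21 to −0.003. Then 0 members and 0.899% of all repeats were called, while the log2 fold changes were 0.57 for ERVB4_2-I_MM-int, 0.45 for MMERVK9E_I-int, 0.78 for RLTR44-int, 0.52 for RLTR27, 0.48 for RLTR10D2 and 0.59 for RMER12B.

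RLTR9E, an LTR known as an ESC enhancer, passed the limit on the adjusted p only. It had 68.4, 71.3, 68.0 and 74.0 CPM in WT#1, 87.7, 90.3, 85.1 and 83.8 in MCM2-2A#2 and 72.7, 71.2, 75.8 and 83.0 in MCM2-R#2. The mutant stood above the other lines in each culture, with an adjusted p of 0.00266 (edgeR), but the log2 fold change of 0.30 (SE 0.05) was below the fold limit. RMER6C, picked after its values were seen, was another such case, with a log2 fold change of 0.41 (adjusted p = 0.00145, edgeR) and of 0.33 in MCM2-R#2 relative to WT#1. RLTR1F_Mm missed the limit on the adjusted p. It had 0.338, 0.218, 0.273 and 0.249 CPM in WT#1, 0.549, 0.482, 0.674 and 0.628 in MCM2-2A#2 and 0.181, 0.269, 0.329 and 0.139 in MCM2-R#2, from 4 to 39 counts per culture. Its log2 fold change was 1.13 (adjusted p = 0.0136, edgeR). The internal region ERVB3_1-I_MM-int had a log2 fold change of 1.11 (adjusted p = 0.0411, edgeR), and its LTR, ERVB3_1-LTR_MM, of 0.80 (adjusted p = 0.016).

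The medians of the name groups were compared as a description, with no test between groups. The highest median was that of names starting with RLTR4, 0.48 over 12 members tested, followed by RLTR10 with 0.35, where 10 of 10 members were above 0. The RLTR9 group had a median of 0.29, the RMER group of 0.25 with 39 of 40 members above 0, the ERVB and MMERVK group of 0.17 and the RLTR13 group of 0.16. Internal regions had a median of 0.27 and LTRs of 0.23. Among the ERVK names outside the members, the IAP median was 0.30, the ETn/MusD median −0.17, and that of the 6 other names left out was 0.80, with 4 of the 6 called.

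**Figure D2:**
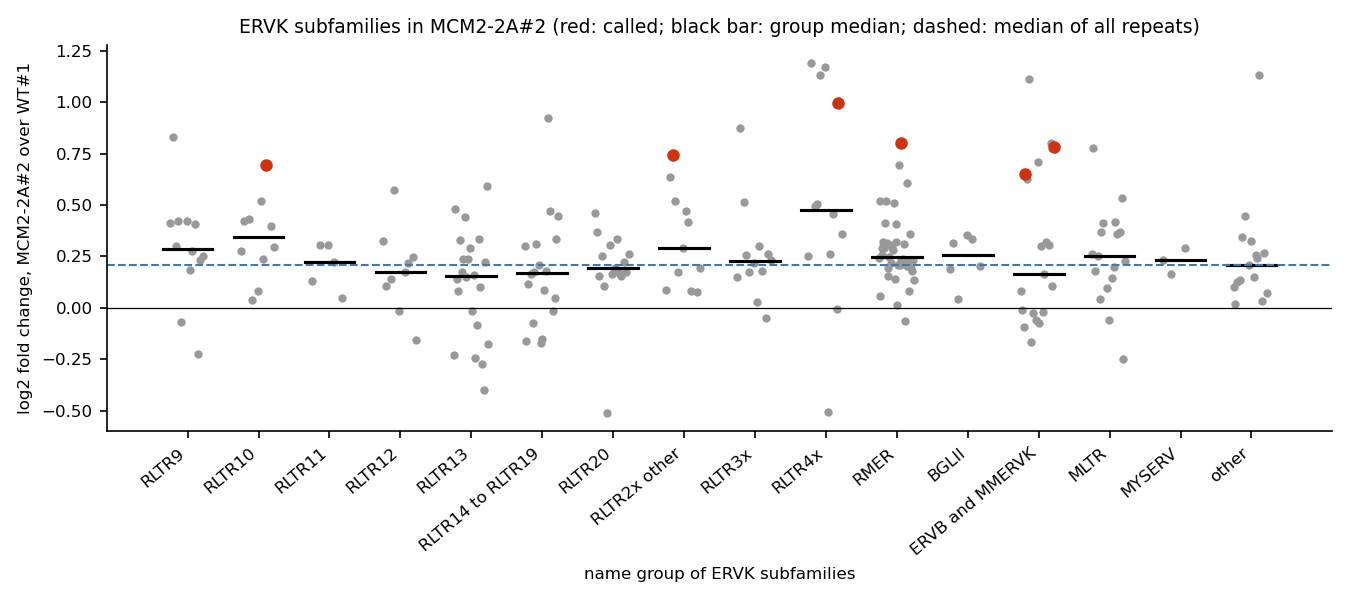
Log2 fold change of MCM2-2A#2 relative to WT#1 for each of the 226 members tested, by name group. Red points are the 6 members called, black bars the median of each group and the dashed line the median of all 879 repeats (0.21); 196 of the points lie above 0, and the called members lie at 0.65 to 0.99.

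Members with known functions in ESCs or other tissues had log2 fold changes of −0.17 to 0.42, none of them called. The trophoblast enhancer LTR RLTR13D5 had a log2 fold change of −0.02, the ESC enhancer LTR RLTR13D6 of 0.08, RLTR9A of 0.42 (adjusted p = 0.123, edgeR), RLTR9D of 0.18, and RLTR17 of −0.17. RLTR10C had 0.42 (adjusted p = 0.00631, edgeR), below the fold limit, and RLTR10 had 0.24. BGLII had 0.19, RMER19B 0.29 and MYSERV-int 0.23. MMTV-int, the internal region of mouse mammary tumour virus, had 0.34 from 1 to 39 counts per culture. Of the members with the highest CPM in WT#1, 0 were called (edgeR's quasi-likelihood test): RLTR13G had a mean of 472 CPM in WT#1 and 418.3 in MCM2-2A#2 (log2 fold change −0.18), RLTR19-int 327 and 324 (−0.02) and ERVB7_1-LTR_MM 314 and 301 (−0.06). RMER16-int had 64.3 and 74.8 CPM (0.22), and of these members RLTR9E alone was at an unadjusted p below 0.05. The one member below 0 at an unadjusted p below 0.05 was RLTR20B3, with a log2 fold change of −0.51, against 79 members above 0.

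Relative to MCM2-2A#2, 0 of the 226 members fell past the limits in MCM2-R#2, against 0.91% of all repeats called lower (edgeR's quasi-likelihood test). At an unadjusted p below 0.05 there were 37 members, 186 members lay below 0, and the median was −0.16 beside −0.14 for all repeats. DESeq2 called 2 members, RLTR44-int and RMER12B, and 1.25% of all repeats. With 1 culture left out the count was 1 at most, beside 0.56 to 1.13% of all repeats. RLTR1F_Mm had a log2 fold change of −1.35 (adjusted p = 0.0119, edgeR), RLTR44-int of −0.83 (adjusted p = 0.0272), RMER12B of −0.74 (adjusted p = 0.0202), MMERVK9E_I-int of −0.49 (adjusted p = 0.00151), ERVB4_2-I_MM-int of −0.46 (adjusted p = 0.0311) and RLTR27 of −0.51 (adjusted p = 0.0713). RLTR10D2 changed least of the 6, with −0.27 (adjusted p = 0.391, edgeR). Relative to WT#1, 0 members were called in MCM2-R#2, as were 0.0% of all repeats, with 14 members at an unadjusted p below 0.05 in edgeR, 0 called by DESeq2 and a median of 0.08 for members and for all repeats. The log2 fold change left in MCM2-R#2 relative to WT#1 was 7.46% of that of MCM2-2A#2 for RMER12B, 16.5% for RLTR44-int, 24.8% for MMERVK9E_I-int, 31.1% for RLTR27, 41.3% for ERVB4_2-I_MM-int and 61.5% for RLTR10D2.

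Known regulators of these elements were looked at beside them. Of 30 repressors of ERVK elements, among them Trim28, Setdb1 and Dnmt1, 0 were called, as were 0 of 13 pluripotency factors that bind ERVK LTRs. Primitive endoderm markers were higher in MCM2-2A#2, 6 of 7 tested, with a summed level of 36.8 to 54.1 CPM against 13.1 to 16.4 in WT#1 and 13.9 to 16.9 in MCM2-R#2. Of 5 markers of 2-cell-like cells 0 were called, with a summed level of 689 to 891 CPM against 399 to 599 in WT#1 and 377 to 631 in MCM2-R#2. Their part in the levels of the members was not tested.

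Across the clone panel, 0 of 237 members passed the limits in MCM2-2A clones relative to WT clones, against 0.393% of all repeats called higher (edgeR's quasi-likelihood test with month as a covariate). The 17 units were libraries summed per clone and month, 8 of WT and 9 of MCM2-2A. WT#1 entered in March and August and MCM2-2A#1 in January and March, with no term for clone. These repeated units of a clone are not independent. At an unadjusted p below 0.05 there were 32 of the 237 members and 100 of all 1017 repeats, and DESeq2 called 4 members and 1.38% of all repeats. A log2 fold change above 0 was found in 208 members (87.8%) and in 82.4% of all repeats. The median was 0.14 for the members and 0.11 for all repeats. Without WT#1 the medians were 0.07 and 0.04, with 0 members and 0.0% of all repeats called. Without WT#5, the January units used were of MCM2-2A clones alone and March had 1 WT unit, so August, with 7 WT and 5 MCM2-2A clones, carries most of the comparison.

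RLTR1F_Mm and RLTR44B came nearest to the limits. RLTR1F_Mm had a lowest, median and highest level of 0.0549, 0.119 and 0.179 CPM in WT units and of 0.153, 0.352 and 0.6 CPM in MCM2-2A units. The groups overlapped at their edges, and the log2 fold change was 1.20 (SE 0.24, adjusted p = 0.0151, edgeR). It was called when MCM2-2A#8 or WT#6 was left out, which gave a count of 1 member. RLTR44B had 0.134, 0.27 and 0.424 CPM in WT and 0.367, 0.477 and 0.605 CPM in MCM2-2A (log2 fold change 0.91, SE 0.20, adjusted p = 0.0251, edgeR). The panel and the rescue experiment share the clones WT#1 and MCM2-2A#2 but no library.

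RMER12B spread most between MCM2-2A clones. It had 3.89, 4.27 and 8.09 CPM in WT units and 3.15, 8.95 and 35.3 CPM in MCM2-2A units. The highest value was that of MCM2-2A#8, and both units of MCM2-2A#1 lay below the lowest WT unit. The log2 fold change was 1.38 (adjusted p = 0.053, edgeR). MMERVK9E_I-int had 32.2, 44.1 and 52.2 CPM in WT and 39.1, 62.7 and 63.7 CPM in MCM2-2A (0.45, adjusted p = 0.0914, edgeR). Here 6 MCM2-2A units stood at 62.5 CPM or more, above the highest WT unit, while MCM2-2A#8 and both units of MCM2-2A#1 stood within the WT range.

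ERVB4_2-I_MM-int varied between clones of both genotypes. Its level was 3.04, 8.87 and 17.9 CPM in WT and 8.48, 14.2 and 23.0 CPM in MCM2-2A (log2 fold change 0.89, adjusted p = 0.345, edgeR). The WT clones of August ran from 3.04 CPM in WT#6 to 17.9 in WT#3, and the MCM2-2A clones from 9.19 in MCM2-2A#8 to 23.0 in MCM2-2A#7. RLTR13B1 put the 7 August WT clones and the 5 August MCM2-2A clones in the very order of ERVB4_2-I_MM-int, from 7.61 CPM in WT#6 to 17.7 in WT#3 and from 11.6 in MCM2-2A#8 to 22.7 in MCM2-2A#7. Its log2 fold change was 0.56. ERVB3_1-I_MM-int had 0.326, 0.625 and 1.11 CPM in WT and 0.75, 1.28 and 1.82 CPM in MCM2-2A (1.03, adjusted p = 0.0704, edgeR), and RLTR10D2 had a log2 fold change of 0.48 (adjusted p = 0.0704). The one member below 0 at an unadjusted p below 0.05 was RLTR34B_MM (−0.29).

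**Figure D3:**
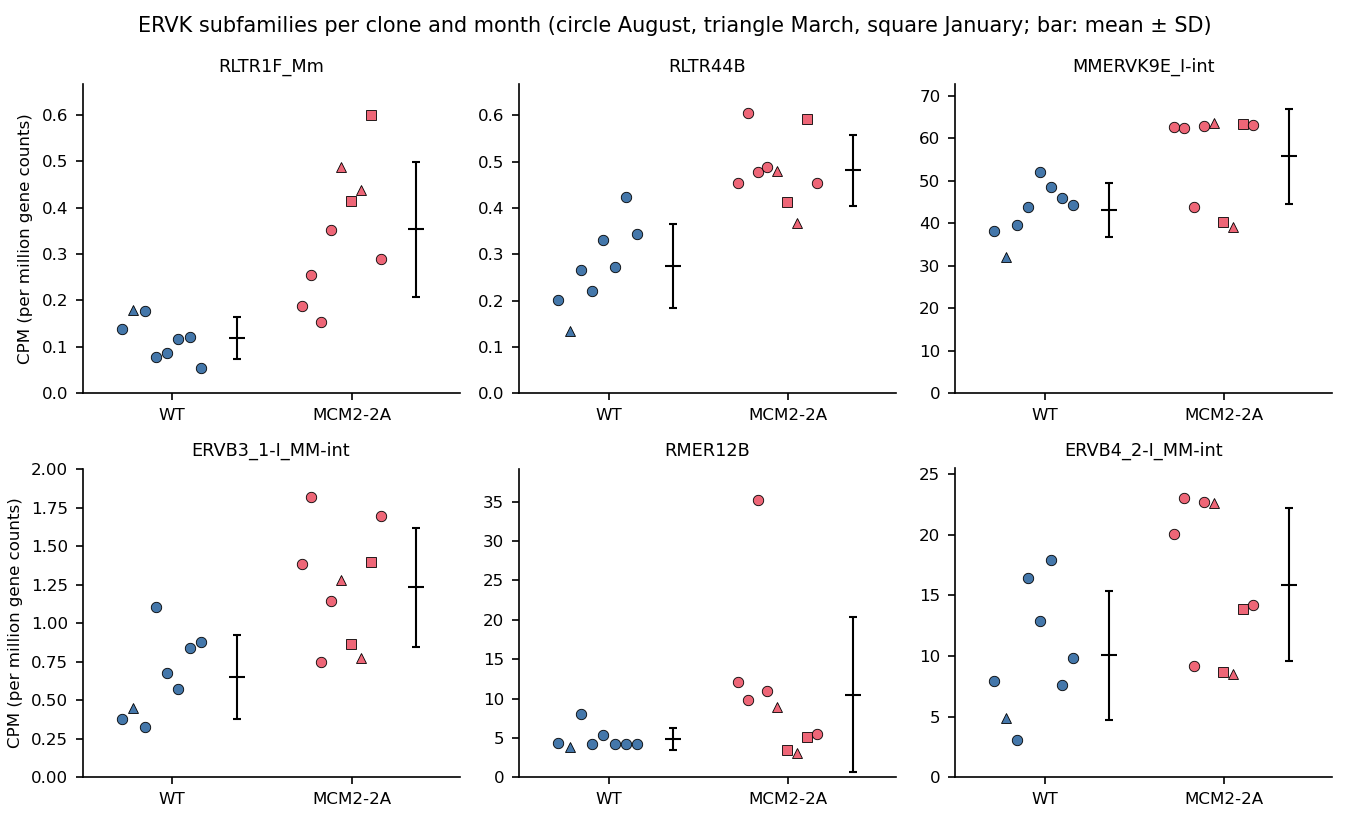
Levels of 6 members in the clone panel, as CPM of gene counts, for WT and MCM2-2A units (libraries of a clone and month summed). Circles are August, triangles March and squares January; RMER12B shows MCM2-2A#8 at 35.3 CPM, far from the other units, and MMERVK9E_I-int shows 6 MCM2-2A units above the highest WT unit.

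The August clones without WT#1, 6 WT against 5 MCM2-2A, share no clone and no library with the rescue experiment. Of 234 members, 0 were called (edgeR's quasi-likelihood test), against 0.205% of all repeats called higher, 25 were at an unadjusted p below 0.05, and DESeq2 called 1, RMER12B. The median was 0.06 beside 0.04 for all repeats. In 4 members (1.71%, against 1.44% of all repeats) every MCM2-2A clone lay above every WT clone. These were RLTR44B (0.222 to 0.424 CPM in WT, 0.453 to 0.605 in MCM2-2A), ERVB3_1-LTR_MM, MurERV4_19-int and, picked after its values were seen, RLTR13C3. The sign of the log2 fold change was shared with the rescue experiment in 159 of 226 members (70.4%) and in 65.8% of all repeats. In these August clones 0 of 7 primitive endoderm markers and 0 of 30 repressors were called (edgeR), against 0.078% of all genes called higher. The 7 endoderm markers still lay above 0, from 0.36 for Dab2 to 1.57 for Gata6, with a median log2 fold change of 0.99. Across all units, which include the clones of the rescue experiment, 3 of 7 primitive endoderm markers were called higher in MCM2-2A clones and 0 of 30 repressors were called.

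The rise was wider in the mean of the POLE4-KO clones. Averaged over the 3 clones, 53 of 222 members rose relative to WT#1 and 0 fell, against 20.9% of all repeats called higher (edgeR's quasi-likelihood test). The p-values of this experiment rest on the spread between libraries of a line, not on that between clones. The median log2 fold change was 0.47 for the members and 0.52 for all 863 repeats tested. The clones differed: 11 members rose in POLE4-KO#1 (2.78% of all repeats called), 124 in POLE4-KO#2 (54.7%) and 26 in POLE4-KO#3 (8.11%). The medians were 0.27, 0.74 and 0.46, beside 0.34, 0.75 and 0.46 for all repeats, and the 3 comparisons share the WT#1 libraries. In the mean of the clones, the median was 0.53 for DNA transposons and 0.55 for L1 elements.

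The count depended on the scaling and on clones and libraries. With scaling on the repeat counts, the median of all repeats was 0.02 in the mean of the clones and 2 members were called, ERVB4_2-I_MM-int (0.78) and RLTR19-int (−0.65). The mean over clones gave 87 members without POLE4-KO#1, 14 without POLE4-KO#2 and 22 without the second WT#1 library. In POLE4-KO#1 the count ran from 0 to 20 with 1 library left out. It was 7 without WT#1 library 1, 0 without library 2 and 1 without library 3, 1, 20 and 0 without POLE4-KO#1 library 1, 2 and 3, 6 and 5 without POLE4-KO#2 library 2 and 3, and 3, 6 and 4 without POLE4-KO#3 library 1, 2 and 3. In POLE4-KO#3 it was 6 without WT#1 library 2, 10 without library 3, and 5 and 6 without POLE4-KO#3 library 1 and 3. The shares of all repeats under these settings are not given here, so these counts do not set the members apart from other repeats.

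The RMER group, named as medium reiterated repeats of rodents, held the most calls, 15 of 40 in the mean of the clones and 36 of 40 in POLE4-KO#2, where its median was 0.85. Of 12 RLTR9 members, 0 were called in the mean (edgeR's quasi-likelihood test, 2 at an unadjusted p below 0.05), with a median of 0.20. The ERVB and MMERVK group had 5 of 19 called and a median of 0.18, and its median in POLE4-KO#1 was −0.20. Internal regions had 11 of 27 called and LTRs 42 of 195. In all 3 clones, 5 members rose: MLTR18A_MM, RLTR15, RLTR17D_Mm, RMER3D-int and RMER6D, against 0.695% of all repeats. With scaling on the repeat counts 0 of these 5 were called in any POLE4-KO clone, and without WT#1 library 2 or POLE4-KO#1 library 3 no member was called in POLE4-KO#1.

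MLTR18A_MM showed the largest of these shared rises, at low levels with few counts behind the WT#1 values. It had 0.637, 0.797 and 0.868 CPM in WT#1 and 1.67, 1.95 and 2.28 in POLE4-KO#1. It had 2.37, 2.41 and 2.83 in POLE4-KO#2 and 1.51, 1.69 and 1.44 in POLE4-KO#3. The 9 POLE4-KO libraries all stood above the 3 of WT#1, and the log2 fold changes were 1.36, 1.71 and 1.00. RMER3D-int, an internal region, had 9.11, 7.55 and 7.14 CPM in WT#1, 13.4, 11.7 and 12.7 in POLE4-KO#1, 13.2, 15.4 and 14.4 in POLE4-KO#2 and 14.5, 12.3 and 12.5 in POLE4-KO#3. These were log2 fold changes of 0.67, 0.85 and 0.72, again with no overlap with WT#1.

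ERVB4_2-I_MM-int separated the clones most clearly. It had 4.75, 2.73 and 2.89 CPM in WT#1 and 2.05, 2.30 and 2.36 in POLE4-KO#1. It reached 27.4, 23.6 and 26.5 CPM in POLE4-KO#2 and 9.44, 8.35 and 11.3 in POLE4-KO#3. The 4 lines did not overlap, with POLE4-KO#1 lowest and POLE4-KO#2 highest. The log2 fold changes were −0.61 (adjusted p = 0.0395, edgeR) in POLE4-KO#1, 2.91 (adjusted p = 5.78e-09) in POLE4-KO#2 and 1.51 (adjusted p = 4.61e-05) in POLE4-KO#3, and the test of a difference among the 3 clones gave an adjusted p of 4.16e-09.

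The RLTR13B LTRs followed in part. RLTR13B1 had 7.06, 4.89 and 6.70 CPM in WT#1, 7.49, 4.95 and 6.22 in POLE4-KO#1, 22.8, 22.8 and 23.1 in POLE4-KO#2 and 12.2, 11.4 and 13.1 in POLE4-KO#3. POLE4-KO#1 overlapped WT#1 and the other clones stood apart. The log2 fold changes were 0.00, 1.89 (adjusted p = 1.25e-07, edgeR) and 0.99 (adjusted p = 0.000521). RLTR13B2 had 3.63, 2.01 and 2.75 CPM in WT#1, 3.29, 1.95 and 2.51 in POLE4-KO#1, 8.32, 10.0 and 8.31 in POLE4-KO#2 and 3.03, 3.88 and 3.44 in POLE4-KO#3. It rose in POLE4-KO#2 (log2 fold change 1.68, adjusted p = 1.12e-05, edgeR), with values of −0.11 and 0.33 in the other clones.

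RLTR44-int stood high in POLE4-KO#2 and POLE4-KO#3. It had 1.57, 1.56 and 0.916 CPM in WT#1, 1.35, 1.64 and 1.16 in POLE4-KO#1, 3.43, 2.96 and 3.18 in POLE4-KO#2 and 4.05, 3.15 and 4.26 in POLE4-KO#3. The latter clones lay above WT#1 in every library, with log2 fold changes of 1.23 (adjusted p = 0.000168, edgeR) and 1.49 (adjusted p = 0.000449), against 0.02 in POLE4-KO#1. RMER12B took another order. It had 3.63, 3.00 and 3.42 CPM in WT#1, 9.54, 6.45 and 9.47 in POLE4-KO#1, 8.03, 5.12 and 7.48 in POLE4-KO#2 and 4.60, 3.06 and 5.59 in POLE4-KO#3. It rose in POLE4-KO#1 (1.34, adjusted p = 0.00336, edgeR) and POLE4-KO#2 (1.04, adjusted p = 0.000864), and POLE4-KO#3 overlapped WT#1.

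**Figure D4:**
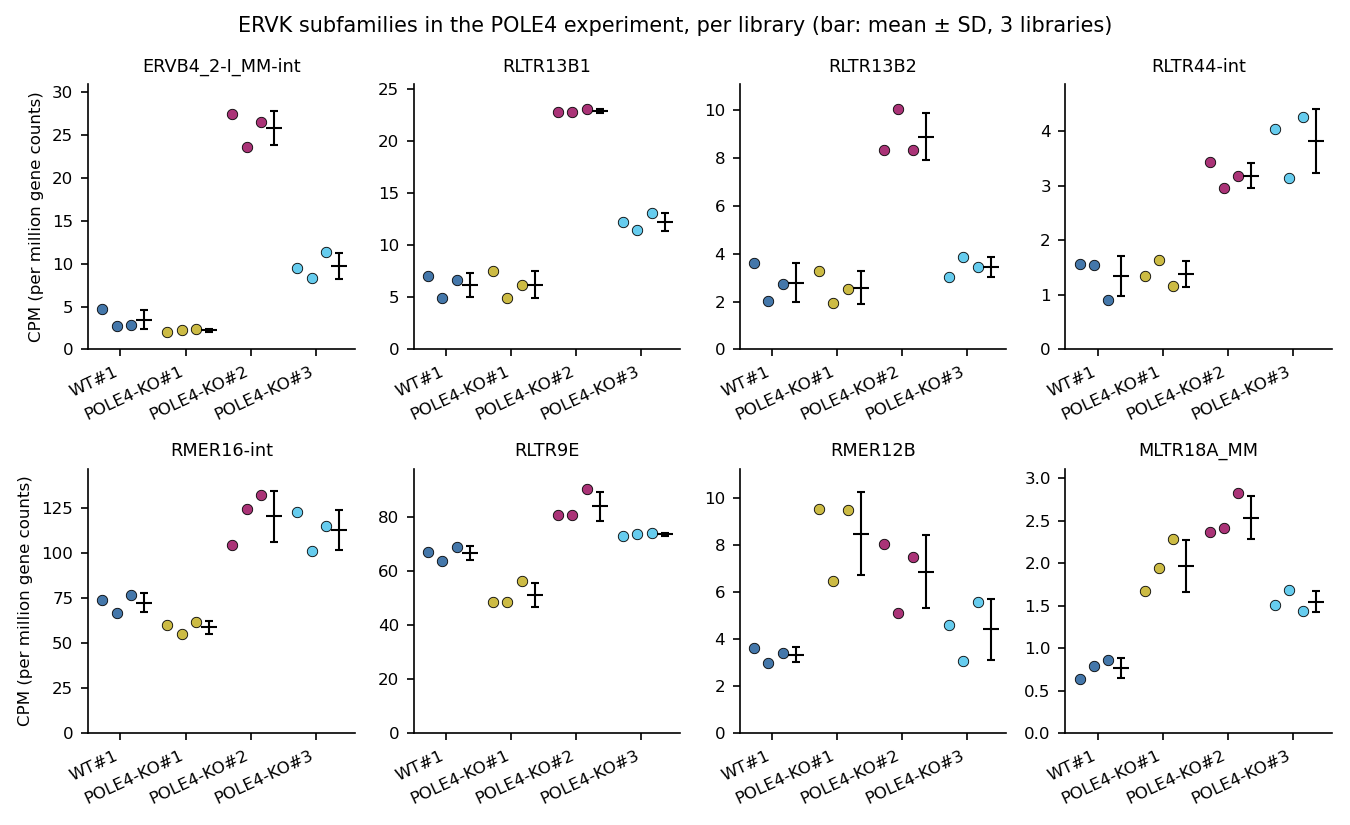
Levels of 8 members in the POLE4 experiment, as CPM of gene counts on axes that start at 0, in WT#1 and the 3 POLE4-KO clones. Points are the 3 libraries of a line and bars the mean ± SD; ERVB4_2-I_MM-int shows the 3 libraries of POLE4-KO#2 at 23.6 to 27.4 CPM and those of POLE4-KO#1 at 2.05 to 2.36.

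A few members with high counts lay lower in POLE4-KO#1. RLTR9E had 67.0, 63.8 and 68.8 CPM in WT#1, 48.4, 48.5 and 56.2 in POLE4-KO#1, 80.7, 80.5 and 90.0 in POLE4-KO#2 and 72.9, 73.5 and 73.9 in POLE4-KO#3. RMER16-int had 73.6, 66.9 and 76.8 CPM in WT#1, 60.3, 54.8 and 61.5 in POLE4-KO#1, 104, 124 and 132 in POLE4-KO#2 and 123, 101 and 115 in POLE4-KO#3. In both, POLE4-KO#1 lay below WT#1 and the other clones above it in every library. The log2 fold change in POLE4-KO#1 was −0.38 for RLTR9E (adjusted p = 0.0055, edgeR) and −0.30 for RMER16-int (adjusted p = 0.03), below the fold limit. With scaling on the repeat counts both were called lower in POLE4-KO#1, with log2 fold changes of −0.71 for RLTR9E and −0.62 for RMER16-int. RLTR13G, the member with the highest CPM in WT#1 of the rescue experiment, split by library number instead: 88.7, 126 and 114 CPM in WT#1, but 412, 630 and 468 in the first libraries of POLE4-KO#1, #2 and #3 against 88.3 to 240 in the other libraries. Its log2 fold change in the mean of the clones was 1.25 (adjusted p = 0.0432, edgeR).

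The clones were tested against each other, without WT#1 in the contrast. In 27 of 222 members the 3 POLE4-KO clones differed at an adjusted p below 0.01 (edgeR's quasi-likelihood F test), against 10.8% of all repeats. POLE4-KO#2 was highest in 24 and POLE4-KO#3 in 3, and POLE4-KO#1 was lowest in 26. Among the 93 repeats past the limit POLE4-KO#2 was highest in 77 and POLE4-KO#1 lowest in 83. POLE4-KO#1 lay below WT#1 in 13 of the 27, and in 59 of all 222 members tested. Among all repeats it lay below WT#1 in 35 of the 93 past the limit and in 141 of the 863 tested. Libraries of the same number deviated together in these clones, and with the library number as a replicate block in the 9 POLE4-KO libraries the count was 85 of 225 members, against 33.8% of all repeats. The count was 11 without the second and 13 without the third library of POLE4-KO#2. The share of all repeats in these fits is not given here.

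Other measures moved with these clones, and their part in the levels of the members was not tested. Repeats took 3.58 to 4.16% of counts in WT#1, 3.77 to 4.71% in POLE4-KO#1, 5.34 to 6.02% in POLE4-KO#2 and 4.17 to 4.88% in POLE4-KO#3. Genes of the mitochondrial chromosome took 3.22 to 3.96% in WT#1 and 4.43 to 6.79% in the POLE4-KO libraries. Of 4 nuclear RNAs, Kcnq1ot1 rose in POLE4-KO#2 (log2 fold change 1.13) and POLE4-KO#3 (0.83), with 0.32 in POLE4-KO#1. Neat1 took another order, called higher in POLE4-KO#2 alone (0.60), with 0.53 in POLE4-KO#1 and 0.07 in POLE4-KO#3. Malat1 and Gm26917 were called in no clone. Their values in POLE4-KO#1 to #3 were 0.35, 0.53 and 0.45 for Malat1 and 0.27, 0.43 and 0.57 for Gm26917. Markers of 2-cell-like cells, 5 of 5 tested, rose in POLE4-KO#2 (summed level 685 to 760 CPM) and POLE4-KO#3 (608 to 743 CPM), not in POLE4-KO#1 (169 to 236 CPM, WT#1 227 to 301 CPM). Fibroblast markers fell in POLE4-KO#1, 5 of 5 tested, to a summed 5.07 to 5.53 CPM from 79.4 to 80.4 in WT#1, and 3 of 5 fell in POLE4-KO#2, to 9.33 to 11.4 CPM. In POLE4-KO#3 0 of 5 were called (edgeR), at 70.5 to 88.8 CPM. Of the 30 repressors, 1 was called lower in the mean of the clones, against 3.53% of all genes called lower. It was the DNA methyltransferase gene Dnmt3a (−0.70), with −1.32 in POLE4-KO#1, −0.88 in POLE4-KO#2 and 0.11 in POLE4-KO#3. The repressor gene Zfp809 was called higher in POLE4-KO#2 (0.66), with 0.45 in POLE4-KO#1, 0.36 in POLE4-KO#3 and 0.49 in the mean.

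**Figure D5:**
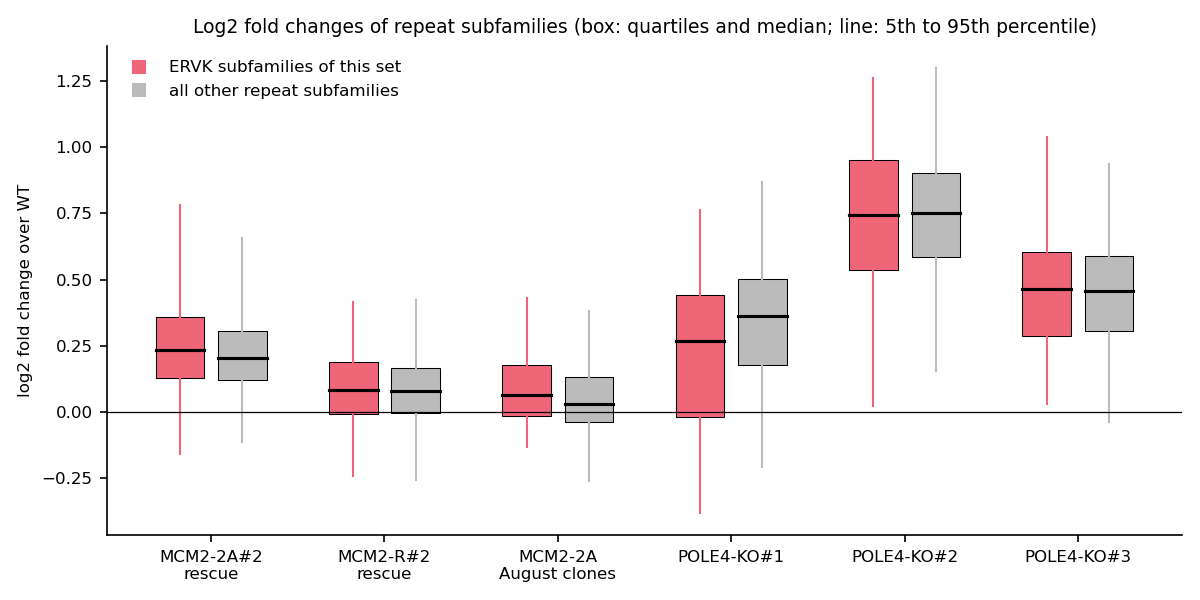
Log2 fold change of the members and of all other repeats in 6 comparisons (MCM2-2A#2 and MCM2-R#2 relative to WT#1, August MCM2-2A clones relative to WT clones without WT#1, and POLE4-KO#1 to #3 relative to WT#1). Boxes are quartiles with the median, lines reach from the 5th to the 95th percentile; the boxes of members and other repeats overlap in each comparison, and the member medians run from 0.06 to 0.74.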

How the data were processed

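Total RNA was depleted of rRNA, and strand-specific libraries were sequenced in 65 libraries used of 68 samples. The submitters' processing notes name Trimmomatic 0.39, STAR 2.7.1a, featureCounts, DESeq2 and mm10, and what the authors deposited were raw counts, in 3 files that list 55335 genes beside the repeat subfamilies. Use of multimapping reads is not given in the sources used here. Left unused were 3 columns whose names could not be matched with any sample, and the 3 libraries of WT#5 were not analysed here.

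Technical runs of a culture, and libraries of a clone and month, were summed. Genes and repeats were fitted together with edgeR 4.0.16 in R 4.3.3 (quasi-likelihood test, TMM factors from gene rows, filterByExpr with a minimum count of 10 and total of 15). P-values were adjusted by the Benjamini-Hochberg method over the repeats tested, and calls were made at an adjusted p below 0.01 with a log2 fold change beyond 0.58 in size. The 3 POLE4-KO clones were separate groups. SE was the log2 fold change divided by the root of F. Tables were handled with the data.table package (version 1.17.8), pandas 2.3.3 and numpy 2.4.6, and plots were drawn with matplotlib 3.10.9 in Python 3.11.15. The fit was tested on simulated data.

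Alternatives were DESeq2 1.42.0, its size factors in edgeR, TMM from repeats with or without genes, no filter, other adjustments and limits, single libraries, no month term, first runs alone, the run as a covariate, a replicate block and leaving out each library or clone. Same-numbered POLE4-KO libraries deviated together, with 9 of 9 correlations of deviations above 0.1 (0.143 to 0.32) against 0 of 18 for other pairs. The main POLE4 fits held no term for this, and the replicate block was an alternative on the POLE4-KO libraries alone. Columns of WT#1 there carry no matching number. In the rescue experiment 5 of 12 same-numbered pairs were above 0.1 (−0.0998 to 0.394), against 6 of 36 other pairs. Cultures were not taken as paired in the main fit there, and a replicate block was an alternative. The paper calls the replicates biological, and p-values of the clone panel rest on the spread between clones and months. Those of the rescue and POLE4 experiments rest on the spread between cultures or libraries of a line, not between clones.

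Members named were those called in any comparison (at most 15 per comparison), the 6 highest and 4 lowest log2 fold changes at an unadjusted p below 0.05 in 3 comparisons, the 5 highest CPM in WT#1, members of known biology and the 3 nearest to the limits. The members and gene lists were chosen with earlier results of these data known.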

Additional observations from a re-analysis of the deposited data

Results flagged for a closer look

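Across 130 groups of values over 26 members, 7 samples lay far from the others of their group by Dixon's criterion, which chance meets in about 1 in 20 groups. In the rescue experiment these were WT#1 culture 3 for RLTR44-int (1.75 CPM, low), MCM2-2A#2 culture 3 for RLTR44A (0.673 CPM, low), and MCM2-R#2 culture 4 for RLTR44B (1.01 CPM, high) and RMER12B (5.29 CPM, high). In the clone panel they were WT#6 of August (8.09 CPM, high) and MCM2-2A#8 of August (35.3 CPM, high) for RMER12B, and WT#1 of March for RMER6A (31.4 CPM, low). Both RMER12B values of the panel were in units that, when left out, brought RLTR1F_Mm past the limits. The 7 samples in 130 groups are near the share that chance meets, and whether anything sets these libraries apart was not tested.

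The 3 POLE4-KO clones differed from each other in 15 of the named members, by the F test among clones in edgeR. The adjusted p was 4.16e-09 for ERVB4_2-I_MM-int, 3.92e-07 for RLTR13B1, 1.29e-06 for RMER16-int, 1.09e-05 for RLTR9E and 1.46e-05 for RLTR13B2. It was 0.000429 for RLTR44-int, 0.000713 for RMER17A2 and 0.000732 for ERVB5_1-I_MM-int. It was 0.00226 for RLTR10C, 0.00239 for BGLII, ERVB2_1A-I_MM-int, MLTR11A, RLTR10-int and RMER6A, and 0.00412 for RMER19B. ERVB5_1-I_MM-int, an internal region with 5 to 36 counts per library, had log2 fold changes relative to WT#1 of −1.25 in POLE4-KO#1, 0.76 in POLE4-KO#2 and 0.43 in POLE4-KO#3.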

How the results depend on the processing

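The number of members called depended on the scaling in most comparisons. With TMM factors from repeats alone it was 0 in place of 6 for MCM2-2A#2, 2 (1 higher, 1 lower) in place of 53 higher for the POLE4-KO mean, 3 (1 higher, 2 lower), 6 (3 higher, 3 lower) and 2 (1 higher, 1 lower) in place of 11, 124 and 26 higher for POLE4-KO#1 to #3, and 8 in place of 27 for the difference among clones. There the log2 fold change turned in direction for BGLII in MCM2-2A#2 (−0.021), for RLTR11A (−0.21), RLTR20B3 (−0.28) and RMER17A2 (−0.23) in the POLE4-KO mean, and for RMER19B in POLE4-KO#2 (−0.046). Such scaling sets the median of all repeats near 0 by construction. With no filter the count was 10 for MCM2-2A#2 (2.57% of all repeats called), 2 for MCM2-R#2 against MCM2-2A#2 (1.42%), 18 for POLE4-KO#1 and 83 for the difference among clones. With an adjusted p below 0.05 and no fold limit it was 19 for MCM2-2A#2 (7.85% of all repeats) and 5 for MCM2-R#2 against MCM2-2A#2 (2.62%). It was then 2 for the clone panel, 132 for the POLE4-KO mean, 44 for POLE4-KO#1 and 92 for POLE4-KO#3. DESeq2 gave 2 for MCM2-R#2 against MCM2-2A#2 (1.25% of all repeats), 4 for the clone panel (1.38%) and 1 for the August clones. Adjustment over genes and repeats together gave 1 for MCM2-R#2 against MCM2-2A#2 (1.02% of all repeats), 13 for POLE4-KO#3 and 48 for the difference among clones. In the clone panel single libraries as units gave 5 and no month term 1. Where a count stands without a share of all repeats, that share under the same setting is not given here. In the main fits the share was 0.393% for the clone panel and 20.9% for the POLE4-KO mean. It was 2.78%, 54.7% and 8.11% for POLE4-KO#1 to #3 and 10.8% for the difference among clones. Such counts do not set the members apart from other repeats. Other than for the construction of the repeat scaling, the cause of these changes was not tested.

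With 1 culture left out, the counts ran from 2 to 7 for MCM2-2A#2 (1.23 to 2.47% of all repeats) and 0 to 1 for MCM2-R#2 against MCM2-2A#2 (0.56 to 1.13%). With 1 replicate or clone left out, they ran from 0 to 1 for the clone panel, 22 to 60 for the POLE4-KO mean, 0 to 20, 86 to 125 and 5 to 30 for POLE4-KO#1 to #3, and 11 to 33 for the difference among clones. The POLE4-KO mean without POLE4-KO#1 gave 87 and without POLE4-KO#2 14. These counts of the clone panel and the POLE4 experiment stand without a share of all repeats and do not set the members apart. With the replicate block, the POLE4-KO libraries alone gave 85 for the difference among clones. In the rescue experiment, where numbers were not taken as pairs, the replicate block gave 8 for MCM2-2A#2 (2.43% of all repeats) and 2 for MCM2-R#2 against MCM2-2A#2 (1.1%). Of 1897 values of named members under alternatives, 1612 kept their direction and their side of the limits, 247 no longer passed, 33 newly passed and 5 turned in direction. Low counts limit RLTR1F_Mm, RLTR44A, RLTR44B, ERVB3_1-I_MM-int and MMTV-int most.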
